A study of Mus musculus with 2 samples.

Results

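*Elane Prtn3* myeloid progenitors are the few cells of the rib repair callus that carried transcripts of the primary granule genes *Elane*, *Prtn3*, *Mpo* and *Ctsg*. A cell was taken as a member when at least 200 genes were detected, mitochondrial (mt-) genes made up under 10% of its unique molecular identifiers (UMIs, 1 per captured transcript molecule), the 4 genes together had at least 5 UMIs, and *Col1a1*, *Col1a2* and *Col3a1* together made up under 2% of its UMIs. The rule found 70 of 21259 cell barcodes, or 70 of the 19564 that passed the gene and mitochondrial filters (kept cells). Of these, 34 came from the control library and 36 from the *Smo* cKO library. The 4 genes that chose the cells are described below without any test, and members set against other cells are a description as well.

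The libraries were made from callus dissected 4 days post injury (dpi) after resection of a rib segment in adult mice, with tamoxifen given before surgery in both groups. Control animals were *Sox9*:CreER;*R26*:tdT;*Smo* f/+ and *Smo* cKO animals were *Sox9*:CreER;*R26*:tdT;*Smo* f/f, so that both carried the inducible Cre, the tdTomato reporter and at least 1 floxed *Smo* allele. The study asked how loss of *Smo*, which transduces the Hedgehog signal, in the *Sox9* lineage changes the cells of the early callus. Calluses of 3 animals were pooled into 1 library per genotype, which leaves no replicate for a test of the genotypes, and all 95% intervals cover counting error only. Cre was driven by *Sox9*, a gene of the skeletal lineage and not of blood cells. *Smo* itself had 3 UMIs in the control members and 0 in the *Smo* cKO members, where a count of 0 allows up to 7.97 CPM (UMIs of a gene relative to all UMIs of the same cells), against 15.5 CPM in control. tdTomato had 0 and 1 UMIs.

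Granulocytes and monocytes arise in the bone marrow from shared myeloid progenitors. At the promyelocyte stage the cells make the proteases and peroxidase of the primary (azurophil) granules, at the next stages the proteins of the secondary granules, and neutrophils then leave the cycle and keep large amounts of the calcium-binding proteins *S100a8* and *S100a9*. *Elane* (neutrophil elastase), *Prtn3* (proteinase 3) and *Ctsg* (cathepsin G) encode serine proteases, and *Mpo* encodes myeloperoxidase, which makes hypochlorous acid. Transcripts of all 4 are abundant in promyelocytes and nearly absent from mature neutrophils, which carry the finished proteins.

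The 4 rule genes lie on 3 chromosomes. *Prtn3* (chr10:79874476-79883174, plus strand of GRCm38) ends 3072 bases before *Elane* (chr10:79886247-79888215, plus strand) starts, and *Cfd*, a further serine protease gene, starts 2637 bases after *Elane* ends. *Mpo* is at chr11:87793581-87804413 on the plus strand and *Ctsg* at chr14:56099881-56102574 on the minus strand. Stretches of their promoters are shown because the 4 genes were read from the same cells and each promoter holds 1 short word in common, AGGAAGT, a core recognized by ETS family factors such as the myeloid regulator *Spi1*. The sequences are from RefSeq on GRCm38, 5′ to 3′ on the strand of the gene, with this word in capitals. None of the stretches overlaps an annotated exon, and that of *Prtn3* lies in an intron of its longer gene model.
Elane, chr10:79886187-79886246, bases −125 to −66 from the RefSeq start: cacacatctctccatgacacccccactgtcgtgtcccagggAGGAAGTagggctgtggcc
Prtn3, chr10:79879553-79879612, bases −114 to −55: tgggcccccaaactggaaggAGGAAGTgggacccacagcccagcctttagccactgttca
Mpo, chr11:87793534-87793580, bases −250 to −204: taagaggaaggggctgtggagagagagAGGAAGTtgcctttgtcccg
Ctsg, chr14:56102741-56102800, bases −226 to −167: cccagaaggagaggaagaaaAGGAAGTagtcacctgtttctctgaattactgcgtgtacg
AGGAAGT, searched on both strands of the 250 bases before the start, was found in 4 of the 4 promoters and in 7.8% of 27025 promoters. AACGG, a core of the *Myb* site, was in 2 of the 4, *Elane* and *Prtn3*, and in 14.8% of all promoters. The words TATAA, in 3 of the 4, and GCAAT, in 2 of the 4, were in 23.5% and 23.3% of all promoters. The words were chosen after the sequences were seen, and a match describes the letters of the window, not a bound site.

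The libraries were sequenced to 105367110 UMIs over 10747 barcodes in control and 112700220 UMIs over 10512 barcodes in *Smo* cKO. Depth differed between the members of the 2 libraries. The control members held 192957 UMIs, with a median of 5643 per cell (673 to 13928) and 1570.5 detected genes. The *Smo* cKO members held 376230 UMIs, with a median of 10080.5 (4067 to 22459) and 2379 genes. Over 2000 genes, the upper limit of the study's own filter, were detected in 6 of 34 control members (17.6%) and in 22 of 36 *Smo* cKO members (61.1%), so several shares, counts and list ratios are also given for members of at most 2000 genes. Over all kept cells the same share was 58.0% and 59.4%. The libraries shared 613 cell barcodes (5.70% of the control barcodes). Of the members, 1 carried such a barcode, and no barcode was a member in both.

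Members made up 0.338% of the kept control cells (34 of 10057, exact Clopper-Pearson interval 0.234% to 0.472%) and 0.379% of the kept *Smo* cKO cells (36 of 9507, 0.265% to 0.524%). The difference of 0.041 percentage points had a Newcombe interval of −0.130 to 0.215, so the shares were not told apart at this depth. Among kept cells of at most 2000 genes the shares were 0.663% (28 of 4223) and 0.363% (14 of 3859), and the difference of −0.300 points again had an interval that held 0 (−0.628 to 0.0187). After thinning to 1000 UMIs, which left out 706 control and 405 *Smo* cKO cells as too shallow, cells with at least 2 rule UMIs were 0.332% and 0.363%. Members were thus a fraction of a percent of the callus in both libraries.

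**Figure D1:**
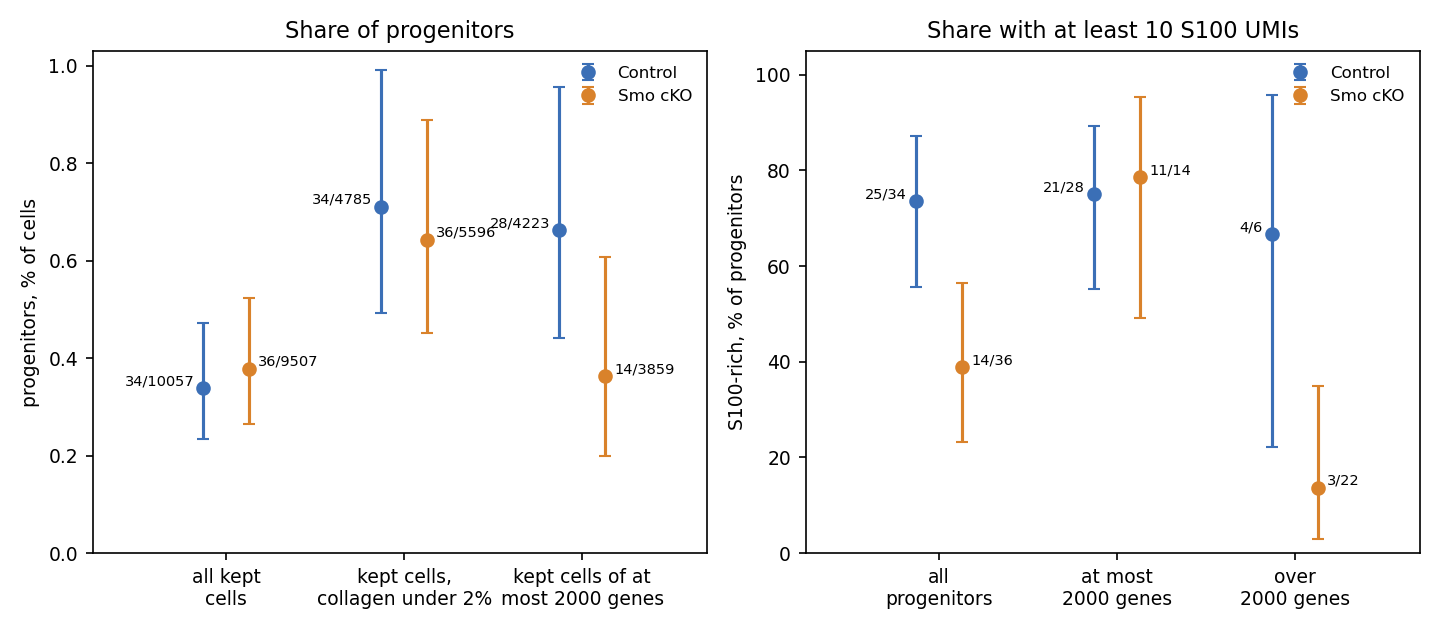
Left, members as a percentage of the cells named on the horizontal axis. Right, members with at least 10 *S100a8* and *S100a9* UMIs as a percentage of the members named on the horizontal axis. Points are 1 library each, bars are exact 95% Clopper-Pearson intervals for counting error, and labels give cells over total. The intervals of the 2 libraries overlap in every group on the left. On the right the shares are 73.5% and 38.9% over all members, and 75% and 78.6% at 2000 genes or fewer.

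The rule genes stood together in most members. All 4 were detected in 28 of the 34 control members and in 28 of the 36 *Smo* cKO members, and 3 control members and 0 *Smo* cKO members had only 1 of them. Summed rule UMIs ran from 5 through a median of 71 to 175 per control cell, and from 5 through 99 to 413 per *Smo* cKO cell. Few cells lay near the limit: 3 control and 6 *Smo* cKO members had 5 to 9 rule UMIs, while 2 and 7 cells under the collagen limit had 3 or 4 and stayed outside. The cells just inside had a median of 3969 and 5500 UMIs in all, and those just outside 7441 and 7646. Members held 78.7% of all rule UMIs of the kept control cells and 82.6% of those of the kept *Smo* cKO cells.

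The rest of the rule UMIs were spread thinly. At least 1 was found in 8.95% of 5272 control and 10.6% of 3911 *Smo* cKO connective-rule cells (collagen at least 2% of UMIs, median depth 10155.5 and 12164 UMIs). The share was 1.51% of 1191 and 1.98% of 1567 macrophage-rule cells (at least 5 UMIs of *C1qa*, *C1qb* and *C1qc*, median depth 2739 and 3555). Among neutrophil-rule cells (*S100a8* and *S100a9* at least 2% of UMIs, not members, median depth 1040 and 1656.5) it was 0 of 93 in control, which allows up to 3.23% (3 counts of the total, as for each limit of this kind), and 9 of 124 (7.26%) in *Smo* cKO. No cell of these 3 kinds had more than 5 rule UMIs.

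*Elane* was at 5353.5 CPM in the control members (1033 UMIs in 30 cells) and 3163 CPM in the *Smo* cKO members (1190 UMIs in 34 cells), a log2 ratio of *Smo* cKO over control of −0.76 (exact Poisson interval −0.88 to −0.64). Per cell it ran from 0 through a median of 4644.6 to 13683 CPM in control and from 0 through 2353.9 to 13593 in *Smo* cKO. The range of the cells was alike in the 2 libraries and the middle was lower in *Smo* cKO. *Prtn3* was at 3995.7 and 3947.1 CPM, with a log2 ratio of −0.02 (−0.14 to 0.11), and was detected in 33 of 34 and 36 of 36 cells. Its median per cell, 3951.1 and 3951.6 CPM, was nearly the same. *Mpo* was at 1953.8 and 1520.3 CPM (−0.36, interval −0.55 to −0.17) and *Ctsg* at 2073 and 1366.2 CPM (−0.60, interval −0.79 to −0.41), each in 30 control cells and in 30 and 33 *Smo* cKO cells. As the members were chosen by these genes, their levels describe the choice.

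The balance of *Prtn3* and *Elane*, both used by the rule, is given as a description. *Prtn3* had more UMIs than *Elane* in 10 of 34 control members (29.4%) and in 25 of 36 *Smo* cKO members (69.4%). Among members of at most 2000 genes the counts were 9 of 28 and 7 of 14. Both control counts include the pair of members with *Prtn3* alone, described below.

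Other genes of the primary granule and of early granulocyte progenitors summed to a lower level in the *Smo* cKO members, while most were within 2-fold. *Ms4a3*, a marker of granulocyte and monocyte progenitors, was at 932.85 CPM in control and 576.77 CPM in *Smo* cKO (log2 ratio −0.69, interval −0.99 to −0.40), in 27 cells each. *Srgn*, which encodes the proteoglycan core that binds granule proteases, was in all members and went from 2549.8 to 1166.8 CPM (−1.13, −1.32 to −0.94). *Nkg7*, a granule membrane gene, was at 456 and 266 CPM (−0.78, −1.21 to −0.35). *Serpinb1a*, an inhibitor of elastase, proteinase 3 and cathepsin G, was at 415 and 202 CPM (−1.04, −1.51 to −0.57).

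*Ctsc*, the peptidase that activates these proteases, went the other way, at 67.4 and 167 CPM (1.31, 0.44 to 2.30). *Calr*, an ER chaperone needed for *Mpo* folding, was at 746 and 1021 CPM (0.45, 0.17 to 0.74), and *Lyz2*, lysozyme, at 886 and 1223 CPM (0.46, 0.21 to 0.73). Of the 15 genes of this list of 16 that reached 100 CPM in a library, 1 was at least 2-fold higher in *Smo* cKO, *Ctsc*, and 2 were at least 2-fold lower, *Srgn* and *Serpinb1a*. Their median log2 ratio was −0.63, and that of all 1246 genes at this level was 0.097. Over all of these genes, 6.58% were at least 2-fold higher in *Smo* cKO (82 genes) and 5.7% at least 2-fold lower (71 genes). With members of over 2000 genes left out, 156 were higher and 132 lower, and 76 of the 153 were among them. Scaled by the median gene ratio, 69 were higher and 76 lower.

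With mt- and ribosomal protein genes left out, the most abundant transcripts of the members were not those of the rule. *S100a8* led, at 18180 CPM in control and 19151 CPM in *Smo* cKO (log2 ratio 0.08, interval 0.02 to 0.13), and *S100a9* was at 7027.5 and 9797.2 CPM (0.48, 0.39 to 0.57). These sums hid a split among the cells. *S100a8* ran from 0 through a median of 18133 to 84238 CPM per control cell, and from 0 through 291 to 158593.6 CPM per *Smo* cKO cell. A middle *Smo* cKO member thus carried little *S100a8*, while its highest members carried more than any control member.

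With a mark of 10 UMIs of *S100a8* and *S100a9*, 25 of 34 control members (73.5%, interval 55.6% to 87.1%) and 14 of 36 *Smo* cKO members (38.9%, 23.1% to 56.5%) were S100-rich. The *Smo* cKO share minus the control share was −34.6 percentage points (Newcombe interval −53.1 to −11.4). After thinning to 2000 UMIs with a mark of 3, it was 22 of 31 (71.0%) and 14 of 36 (38.9%), a difference of −32.1 points (−51.2 to −8.16). The class is a range cut from a count, but few cells were near the cut, with 2 control and 3 *Smo* cKO members at 5 to 19 UMIs. As background, the mark was reached by 0 of 1191 control macrophage-rule cells, which allows up to 0.252%, and by 2 of 1567 *Smo* cKO macrophage-rule cells (0.128%). Among connective-rule cells it was reached by 22 of 5272 (0.417%) in control and 5 of 3911 (0.128%) in *Smo* cKO, a difference of −0.289 points (−0.515 to −0.067).

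The difference between the members of the libraries was seen in the cells of many genes, of which control had 6. Among members of at most 2000 genes, 21 of 28 (75%) in control and 11 of 14 (78.6%) in *Smo* cKO were S100-rich, a difference of 3.57 points (−25.3 to 26.6). Among members of over 2000 genes it was 4 of 6 and 3 of 22 (13.6%), a difference of −53.0 points (−78.3 to −11.4). Of those 4 control cells, 3 had collagen at 1.17%, 1.77% and 0.616% of UMIs, and 1 of the 3 *Smo* cKO cells had it at 0.971%. These collagen-bearing cells lay in the third group of the clustering given below. The S100-poor cells of *Smo* cKO had a median of 12052 UMIs and 2750 genes, and those of control 5490 UMIs and 1553 genes. S100-rich cells had 5780 UMIs and 1588 genes in control and 6570 UMIs and 1655.5 genes in *Smo* cKO. With 1 library per genotype, the genotype and the library cannot be told apart, and the part of depth in this difference was not tested beyond these values.

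**Figure D2:**
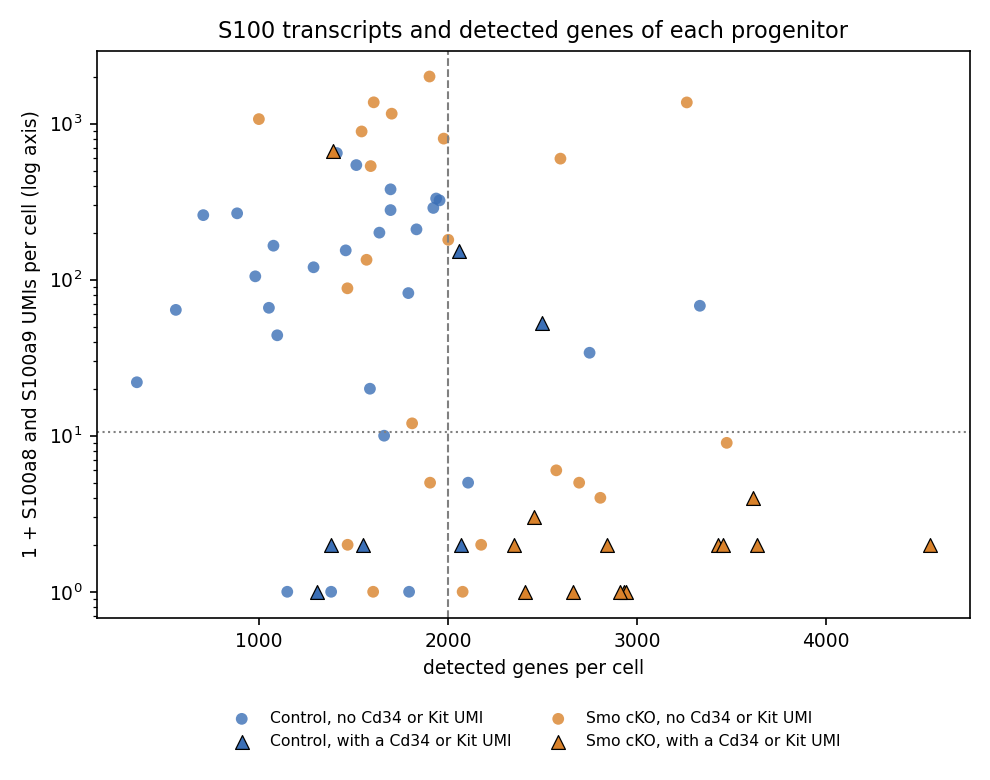
Each point is 1 member, with detected genes on the horizontal axis and 1 plus the UMIs of *S100a8* and *S100a9* on a log vertical axis. Blue is control, orange is *Smo* cKO, and triangles are cells with a *Cd34* or *Kit* UMI. The dashed line is at 2000 genes and the dotted line is the mark of 10 UMIs. The lower right holds 19 of the 36 *Smo* cKO members and 2 of the 34 control members.

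The mark did not use *Fcnb*, *Cebpe* and *Ms4a3*, which are given as examples chosen after their values were seen. *Fcnb*, a ficolin of immature neutrophils, was detected in 20 of 25 S100-rich and 1 of 9 S100-poor control cells, and in 12 of 14 and 0 of 22 *Smo* cKO cells, with 0 CPM in the macrophage-rule cells of control. *Cebpe*, the transcription factor of secondary granule genes, was at 237 and 20.1 CPM in S100-rich and S100-poor control cells and at 440 and 37.1 CPM in those of *Smo* cKO. *Ms4a3* was at 1159 and 282 CPM, and at 945 and 431 CPM. All 3 were thus higher in the S100-rich cells of each library.

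Of the rule genes, *Elane* was at 6401 and 2334 CPM in S100-rich and S100-poor control cells and at 6046.5 and 2019 CPM in those of *Smo* cKO, so that within a class the libraries were close. *Ctsg* was at 2408 and 1107 CPM, and at 1984 and 1121 CPM. *Mpo* had no common order, at 2108 and 1509 CPM in control and at 1235.5 and 1633 CPM in *Smo* cKO. *Prtn3* had more UMIs than *Elane* in 5 of 25 S100-rich and 5 of 9 S100-poor control cells, and in 7 of 14 and 18 of 22 *Smo* cKO cells. The 9 S100-poor control cells include the 3 with a single rule gene, described below, which enter each count and CPM given for that class. The pair of them with only *Prtn3*, and so no *Elane*, is among the 5 of 9.

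Some early and monocyte progenitor genes were found in more of the S100-poor cells, and *Ly6c2*, the most abundant gene of the monocyte progenitor list, in more of the S100-rich cells. *Ly6c2* was detected in 6 of 9 S100-poor and 25 of 25 S100-rich control cells, and in 16 of 22 and 14 of 14 *Smo* cKO cells. The 3 S100-poor control cells without it were those with a single rule gene, described below. *Ccr2*, the chemokine receptor of inflammatory monocytes, was detected in 5 of 9 S100-poor and 3 of 25 S100-rich control cells, and in 16 of 22 and 0 of 14 *Smo* cKO cells. *Irf8*, a transcription factor of monocyte progenitors, had 5 and 8 UMIs in S100-poor cells and 0 in S100-rich cells of both libraries. *F13a1*, coagulation factor XIII A of monocytes, was at 221 and 160 CPM in the S100-poor cells of control and *Smo* cKO, and at 48.9 and 56.2 CPM in the S100-rich cells. *Cd34* or *Kit*, surface molecules of early progenitors, were found in 4 of 9 and 13 of 22 S100-poor cells, and in 2 of 25 and 1 of 14 S100-rich cells. Counts of cells rest on unequal depth in *Smo* cKO, where S100-poor cells were the deeper ones, and for *Ccr2* CPM kept the same order, at 262 and 27.9 CPM in S100-poor and S100-rich control cells and 223 and 0 CPM in those of *Smo* cKO. *Ly6c2*, a surface marker of monocytes and their progenitors, did not follow the classes in common, at 1801 CPM in S100-rich and 2133 CPM in S100-poor control cells and 1207 and 549 CPM in *Smo* cKO cells.

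**Figure D3:**
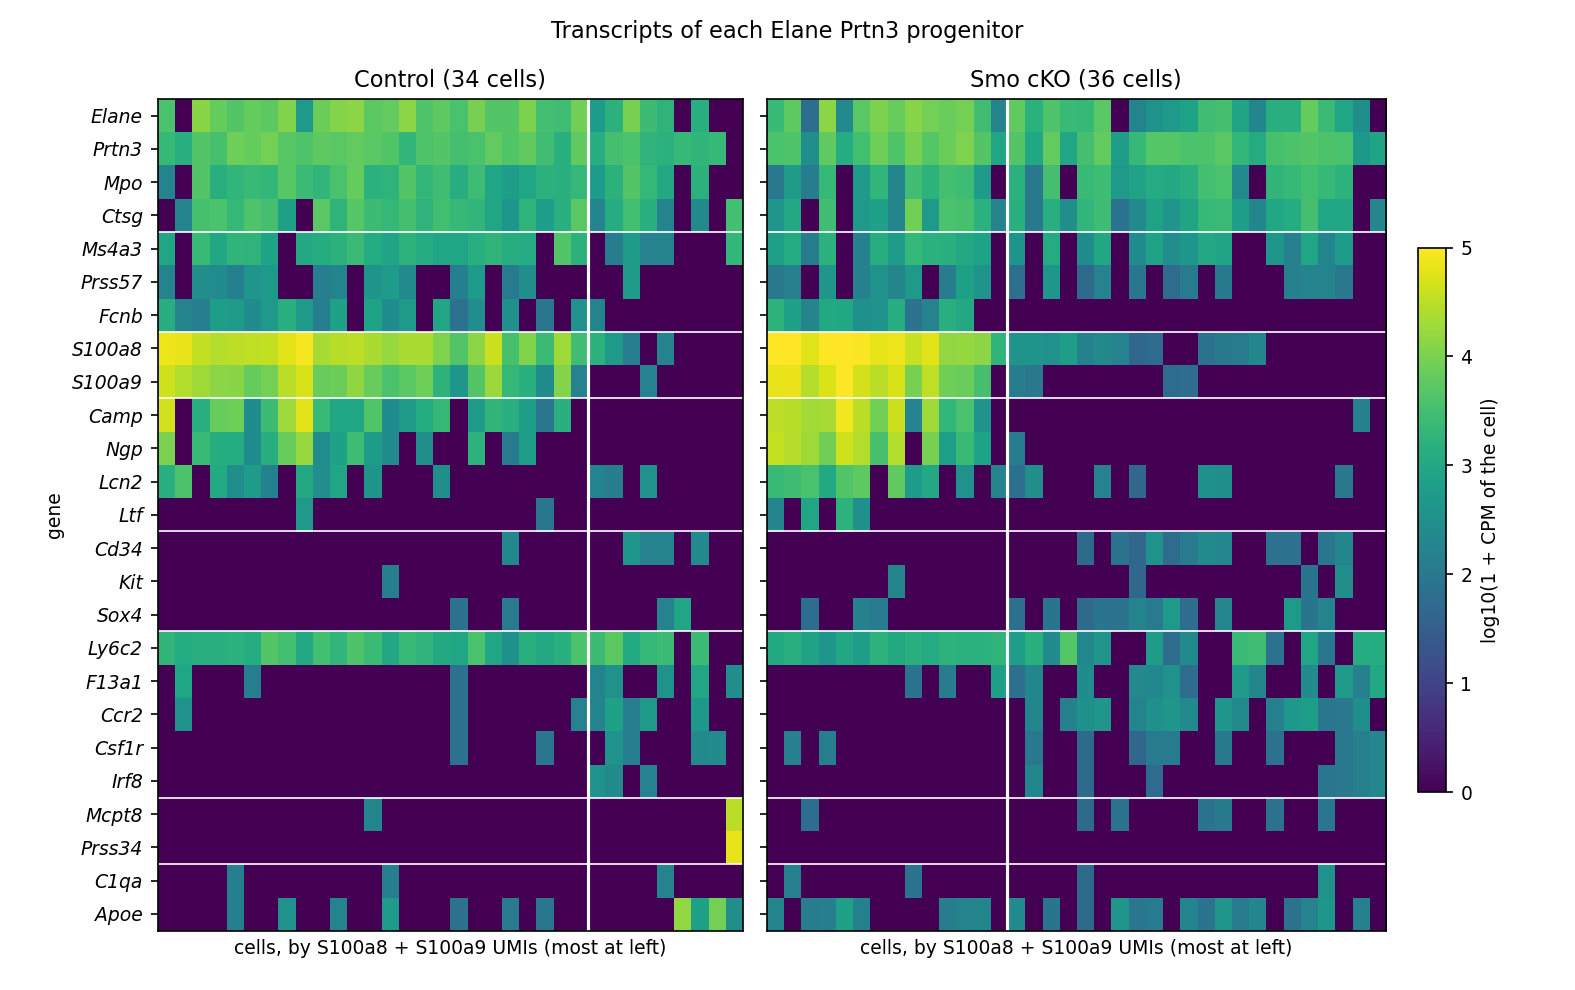
Each column is 1 member and each row a gene, with color giving log10(1 + CPM of the cell). Within a library cells are ordered by their *S100a8* and *S100a9* UMIs, and the white vertical line separates the 25 control and 14 *Smo* cKO cells with at least 10 of them from the rest. *Camp*, *Ngp* and *Fcnb* lie to the left of the line, apart from 1 or 2 UMIs of each in 1 cell, and most *Cd34*, *Ccr2* and *Irf8* to the right, while *Mcpt8* and *Prss34* are high in 1 control cell.

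Secondary granule transcripts were unevenly spread over the members. *Camp*, the precursor of the cathelicidin peptide, was at 3358.3 CPM in control (648 UMIs in 22 cells) and 5262.7 CPM in *Smo* cKO (1980 UMIs in 14 cells), a log2 ratio of 0.65 (0.52 to 0.78). *Ngp*, neutrophilic granule protein, was at 969 CPM (187 UMIs in 17 cells) and 4058.7 CPM (1527 UMIs in 13 cells), a ratio of 2.07 (1.85 to 2.29). Fewer *Smo* cKO cells thus held more of these transcripts. In control, 1 cell gave 38.7% of the *Camp* UMIs, and in *Smo* cKO 1 cell gave 16.7%.

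*Lcn2*, lipocalin 2, was at 332 and 603 CPM (0.86, 0.46 to 1.29). *Ltf*, lactoferrin, had 2 and 25 UMIs in 2 and 4 cells. Of the 25, 14 were in a *Smo* cKO cell with 8 rule UMIs and 7 in a cell with 6 rule UMIs. *Chil3*, a chitinase-like protein, was lower in *Smo* cKO, at 430 and 250 CPM (−0.78, −1.23 to −0.34). The list of 13 summed to 5234 and 10403 CPM, a ratio of 0.99 (0.89 to 1.09), while its median per cell was 1919 and 415 CPM, in the opposite order. Among members of at most 2000 genes the ratio was 2.29. Of the 4 genes past 100 CPM, 1 was at least 2-fold higher (*Ngp*) and 0 at least 2-fold lower. At least 10 *Camp* and *Ngp* UMIs were found in 12 of 34 (35.3%) and 11 of 36 (30.6%) members, a difference of −4.74 points (−25.7 to 16.6). In neutrophil-rule cells the same share was 35 of 93 (37.6%) and 77 of 124 (62.1%), and in macrophage-rule cells it was 0 of 1191 and 0 of 1567, which allows up to 0.252% and 0.191%.

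Secondary granule transcripts had no common order over the rule genes. Over both libraries they summed to 25358 CPM in the 9 members with 5 to 9 rule UMIs, 6595 CPM in the 14 with 10 to 49, 7885 CPM in the 43 with 50 to under 200 and 463 CPM in the 4 with 200 or more, all of them *Smo* cKO cells. In control alone the first 3 values were 3742, 12144 and 3259 CPM, and in *Smo* cKO alone 30663, 371 and 10541 CPM. Of the 6 *Smo* cKO cells with 5 to 9 rule UMIs, 1 had 745 and 1 had 532 secondary granule UMIs, and the other 4 had 2 to 10, so that the 30663 CPM rests on 2 cells. In control, 1 cell held 38 of the 39 UMIs behind the 3742 CPM. Another 2 control cells held 335 and 153 of the 514 UMIs behind the 12144 CPM.

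The list of 12 mature neutrophil genes, with *S100a8* and *S100a9* in it, was uneven in the members. *Retnlg*, a resistin-like gene of circulating neutrophils, had 1 and 36 UMIs in 1 and 6 cells, or 5.18 and 95.7 CPM. Of the 36, 55.6% came from 1 *Smo* cKO cell with 8 rule UMIs. In neutrophil-rule cells *Retnlg* stood at 19847 and 18924 CPM. *Cxcr2*, the receptor by which neutrophils leave the marrow, had 1 and 2 UMIs, and *Csf3r*, the G-CSF receptor, 2 and 11. These 3 were low, while others were common. *Wfdc21* was the third gene of the list by level, at 1544 and 1119 CPM (−0.46, −0.68 to −0.25) in 26 and 22 cells, *Slpi*, an inhibitor of elastase, was at 539 and 457 CPM, and *Msrb1* was in 31 and 34 cells. The list summed to 27882 and 31422 CPM (0.17, 0.13 to 0.22), and to a ratio of 1.53 among members of at most 2000 genes and −0.026 without members of over 0.5% collagen, with 1 of 6 genes past 100 CPM at least 2-fold higher, *Il1b*, and 0 lower.

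Genes of early progenitors were low. *Cd34* had 8 UMIs in 5 control members and 23 UMIs in 12 *Smo* cKO members, *Kit*, the stem cell factor receptor, 1 and 6 UMIs, and *Flt3* 1 and 2. *Gata2*, of stem cells and other lineages, had 0 in both. *Cd34* or *Kit* was detected in 6 of 34 (17.6%) and 14 of 36 (38.9%) members, a difference of 21.2 points (0.013 to 40.0). After thinning to 2000 UMIs, it was 2 of 31 (6.45%) and 3 of 36 (8.33%), a difference of 1.88 points (−13.4 to 16.2), and among members of at most 2000 genes 3 of 28 and 1 of 14. Without thinning the shares were 4.37% and 3.77% in macrophage-rule cells and 45.1% and 40.6% in connective-rule cells, and after thinning 14.7% and 11.3% in connective-rule cells, above the members. The interval of the difference after thinning thus held 0, but these few cells depend on the random draw: in another draw to the same depth *Cd34* alone was in 3 of 31 (9.68%) and 6 of 36 (16.7%).

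The other genes of this list of 16 moved unevenly. *Sox4*, a transcription factor of immature cells, was in 4 control and 16 *Smo* cKO members (log2 ratio 1.21, interval 0.08 to 2.52). *Myb*, which keeps progenitors dividing, was at 202 and 101 CPM (interval of the log2 ratio −1.68 to −0.32), and *Cdk6*, a G1 kinase, at 202 and 218 CPM (0.11, −0.46 to 0.70). *Myb* and *Cdk6* were the 2 genes of the list past 100 CPM, and *Myb* was at least 2-fold lower. The list summed to 601 and 712 CPM (0.24, −0.07 to 0.57). Among members of at most 2000 genes the ratio turned to −1.54, and with the mean of per-cell CPM it was −0.016.

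Among transcription factors of granulocytes and monocytes, the ratios differed from gene to gene. *Spi1*, the ETS factor of all myeloid cells, was at 254 and 260.5 CPM (0.04, −0.47 to 0.56), and *Cebpe* at 181 and 151.5 CPM (−0.26, −0.89 to 0.39). *Cebpa*, needed to form these progenitors, had 5 and 10 UMIs, and *Gfi1*, a repressor of the monocyte program, 9 and 3 (−2.55, −5.07 to −0.55). Of the 5 of 16 genes past 100 CPM, 4 were within 2-fold and 1, *Myb*, was lower. The list summed to a ratio of −0.28 (−0.50 to −0.05).

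The monocyte progenitor list was dominated by 1 gene. *Ly6c2* was at 1886.4 CPM in 31 control members and 736 CPM in 30 *Smo* cKO members (−1.36, −1.59 to −1.13), with a median per cell of 1522 and 804 CPM. *Ccr2* went the other way, at 88.1 and 159.5 CPM (0.86, 0.06 to 1.73), in 8 and 16 cells. *Fn1*, fibronectin, was at 218 and 215 CPM and *Csf1r*, the M-CSF receptor, had 8 and 14 UMIs. Of the 4 genes of this list of 12 past 100 CPM, 1 was at least 2-fold lower (*Ly6c2*) and 0 higher. The list summed to a ratio of −0.81 (−0.99 to −0.63), whereas the median of the 4 genes was 0.23.

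Markers of other cell types were checked in the members. Macrophage transcripts were few, with *C1qa* at 3 and 7 UMIs, *Mrc1* at 0 and 1 and *Adgre1* at 1 and 1. *C1qb*, at 0 and 12 UMIs, and *Ms4a7*, at 1 and 13, were higher in *Smo* cKO. The highest cell of each gave 58.3% and 84.6% of these *Smo* cKO UMIs. *Apoe*, the most abundant of the 11 macrophage genes, had 132 and 46 UMIs, and 1 control cell gave 58.4% of the list's control UMIs. The list summed to 860 and 330 CPM (−1.38, −1.73 to −1.04), against 20202 and 29743 CPM in macrophage-rule cells. With members limited to those with at least 2 rule genes, the ratio was 0.89. Connective tissue genes summed to 4675 and 4093 CPM (−0.19, −0.31 to −0.07), led by *Col3a1* at 1290 and 986 CPM. Under 10 alternatives this ratio ran from −0.92 to 0.12 and kept its sign in 9. The list summed to 53654 and 51801 CPM in connective-rule cells and to 8031 and 5890 CPM in macrophage-rule cells.

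Lymphoid and eosinophil lineages left few transcripts. *Cd79a*, *Vpreb1* and *Dntt* of B cells, *Cd3e*, *Trbc2* and *Ncr1* of T and NK cells, and *Epx*, *Prg2* and *Prg3* of eosinophils had 0 UMIs in both libraries. The B lymphoid list had 16 and 13 UMIs (−1.26, −2.44 to −0.11), of which *Ebf1*, a B cell factor also found in connective-rule cells, had 14 and 3, *Ighm* 1 and 9 and *Cd79b* 1 and 1. *Klf1*, of erythroid cells, had 0 and 1, and *Gata1* and *Car1* had 0. Hemoglobin genes made up most of the erythroid and megakaryocyte list, which summed to 321 and 521 CPM and to 9372 and 9676 CPM in macrophage-rule cells. Of the endothelial list, *Pecam1* had 0 and 14 UMIs and *Emcn* 0 and 1, while *Cdh5*, *Kdr*, *Plvap* and *Tie1* had 0. All 14 *Pecam1* UMIs were in 6 S100-poor cells of *Smo* cKO. *Adgrl4*, with 1 and 10 UMIs, and *Erg*, with 1 and 2, were not on that list.

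The control library held 1 member with many basophil transcripts. It had 238 UMIs of *Prss34* and 104 of *Mcpt8*, basophil proteases, with 7 of *Cpa3* and 7 of *Fcer1a*, the IgE receptor. Its 11 rule UMIs were all *Ctsg*, and it had 7 *Ms4a3* UMIs and 58 UMIs of G2 and M phase genes among 3456. *Mcpt8* and *Ctsg* lie 14607 bases apart on chromosome 14, both on the minus strand. This cell gave 98.4% of the control UMIs of the basophil and mast cell list, whose ratio of −4.35 became 1.55 without it. A pair of other control members, with 9 and 12 *Prtn3* UMIs, had none of the other 3 rule genes and no *Ms4a3* or *Ly6c2*. *Prtn3* alone made them members. They had 36 and 82 *Apoe* UMIs and 0 and 3 UMIs of G2 and M phase genes. Both lay in the third group of the clustering given below.

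Members carried many transcripts of dividing cells. After thinning to 2000 UMIs, at least 3 UMIs of the 52 G2 and M phase genes were found in 25 of 31 control (80.6%) and 33 of 36 *Smo* cKO members (91.7%). The shares were 22.6% and 20.4% in macrophage-rule cells, and 4 of 17 (23.5%) and 25 of 47 (53.2%) in neutrophil-rule cells. *Hmgb2*, the most abundant gene of the list, gave 1140 and 1257 of the list's 4156 and 4107 CPM in the members. It was at 530 and 1130 CPM in neutrophil-rule cells. In a draw to 2000 UMIs, *Mki67* was detected in 3 of 31 and 6 of 36 members, and *Top2a* in 9 of 31 and 11 of 36. Cells under 2000 UMIs were left out, 3 and 0 members, 76 of 93 and 77 of 124 neutrophil-rule cells and 293 of 1191 and 217 of 1567 macrophage-rule cells, so that the neutrophil-rule values describe the deepest of those cells. At least 3 UMIs of the 42 S phase genes were found in 17 of 31 (54.8%) and 26 of 36 (72.2%) members, and in 10.1% and 8.89% of macrophage-rule cells. Without thinning, the members' shares were 94.1% and 100% for G2 and M and 70.6% and 100% for S, at the unequal depths given above. Among members of at most 2000 genes, S phase UMIs at that mark were in 40% and 92.9% after thinning to 2000 UMIs. After thinning to 1000 they were in 6 of 27 (22.2%) and 3 of 14 (21.4%), so that no order of the libraries is read from S phase UMIs. G2 and M phase UMIs were in 68% and 100% of these members at 2000 UMIs, and in 14 of 27 (51.9%) and 11 of 14 (78.6%) at 1000.

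Between the libraries, G2 and M phase genes summed to 4156 and 4107 CPM (−0.02, −0.14 to 0.11). Past 100 CPM, 12 of 12 of these genes were within 2-fold, and so were 1093 of all 1246 genes. *Top2a*, topoisomerase II of dividing cells, had 25 and 69 UMIs (0.50, −0.18 to 1.22), and *Mki67* 14 and 36. S phase genes summed to 1674 and 2294 CPM (0.45, 0.27 to 0.64), with 1 of 6 past 100 CPM at least 2-fold higher, *Slbp*, the histone mRNA binding protein, at 51.8 and 146 CPM. In both libraries S phase transcripts were found in each S100 class, at 1871 and 1107 CPM in S100-rich and S100-poor control cells and 2368 and 2264 CPM in those of *Smo* cKO.

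**Figure D4:**
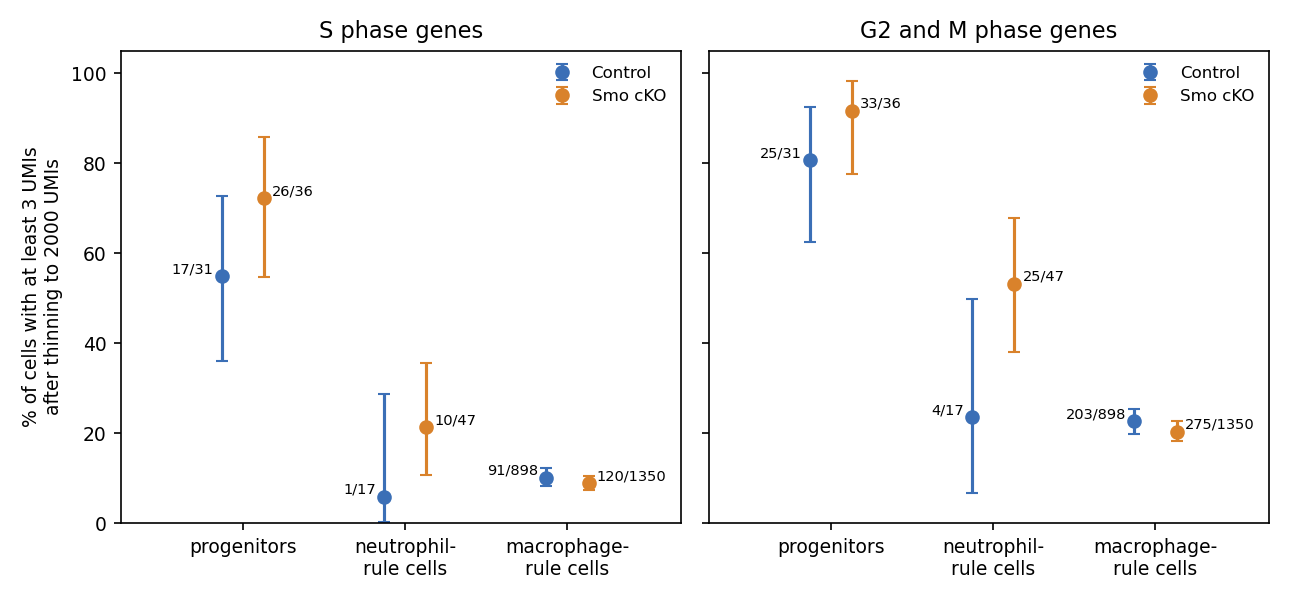
Percentage of cells with at least 3 UMIs of the S phase list (left) and of the G2 and M phase list (right) after thinning to 2000 UMIs, in the members, neutrophil-rule and macrophage-rule cells that had as many. Points are 1 library each, bars are exact 95% Clopper-Pearson intervals, and labels give cells over total. Members lie at 54.8% to 91.7% and macrophage-rule cells at 8.89% to 22.6%.

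Genes that load and fold secreted proteins were within 2-fold between the libraries where past 100 CPM, as were most genes. *Sec61b*, of the ER translocation channel, was at 1415 and 1510 CPM, *Hspa5*, the main ER chaperone, at 637 and 513 CPM, and *Manf*, an ER stress protein, at 461 and 484 CPM. Of the 18 genes, 14 passed 100 CPM and all 14 were within 2-fold, as were 1093 of all 1246 genes past it. The summed ratio was 0.16 (0.06 to 0.26), and it turned to −0.32 among members of at most 2000 genes. The list summed to 6069 and 6780 CPM in the members, to 1552 and 2451 CPM in neutrophil-rule cells, to 5100 and 4683 CPM in macrophage-rule cells and to 7315 and 8315 CPM in connective-rule cells. The members thus lay above the neutrophil-rule cells and within the range of the other cells.

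The oxidative burst and heme list summed to 2047 and 1807 CPM (−0.18, −0.36 to 0.0029), and to a ratio of 0.58 among members of at most 2000 genes. *Cybb*, the catalytic subunit of the NADPH oxidase, was at 358 and 303 CPM, and 6 of 7 genes past 100 CPM were within 2-fold, the exception being *Hmox1*, heme oxygenase (−1.12, −1.92 to −0.32). Cytokine receptors summed to 435 and 417 CPM (−0.06, −0.45 to 0.34), with *Csf2rb*, the common beta chain of the GM-CSF receptor, at 7 and 36 UMIs (1.40, 0.21 to 2.81) and *Ifngr1*, an interferon gamma receptor chain, at 197 and 90.4 CPM (−1.12, −1.84 to −0.42). *Ifngr1* was the 1 gene of these past 100 CPM.

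Homing and adhesion genes summed to 1083 and 1082 CPM (−0.0018, −0.25 to 0.25). *Cxcr4*, which holds myeloid cells in the marrow by binding *Cxcl12*, had 9 UMIs in 6 control members and 6 UMIs in 5 *Smo* cKO members (−1.55, −3.32 to 0.11). *Cd44*, a hyaluronan receptor, was at 264 and 202 CPM. Of the 4 genes past 100 CPM, 3 were within 2-fold and 1 was lower, the tetraspanin *Cd9* (−1.55, −2.50 to −0.63).

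Interferon-stimulated genes had 27 UMIs in control and 128 in *Smo* cKO, or 140 and 340 CPM, a ratio of 1.28 (0.67 to 1.94). With members of over 2000 genes left out the ratio was 0.47, under 2-fold. *Ifi27l2a* was at 51.8 and 120 CPM, in 6 and 11 cells, and *Bst2*, tetherin, had 8 and 34 UMIs. The list was also higher in *Smo* cKO in the other cells of the callus, at 1082 and 3834 CPM in macrophage-rule cells and 194 and 1019 CPM in connective-rule cells.

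**Figure D5:**
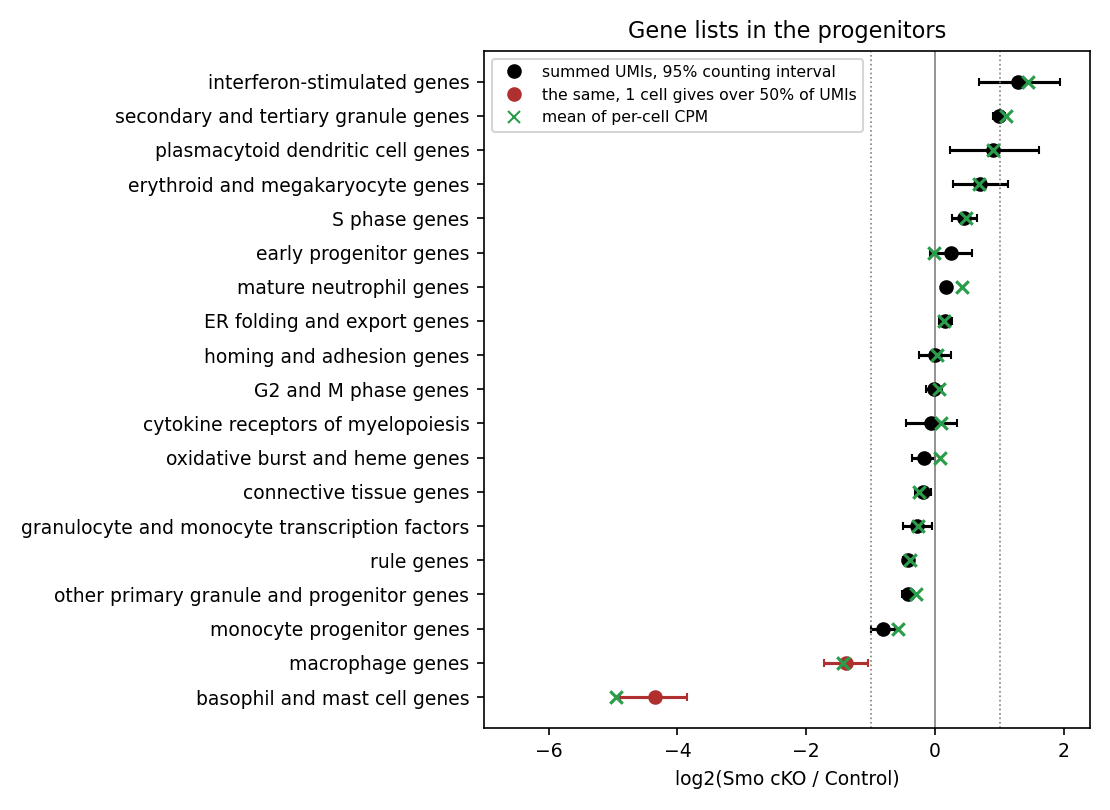
log2 ratio of *Smo* cKO over control members for each gene list with at least 100 UMIs over both libraries. Circles are ratios of summed UMIs with exact 95% Poisson intervals, in red where 1 cell gives over 50% of a library's UMIs, and crosses are ratios of the mean CPM per cell. Dotted lines mark 2-fold. Most lists lie between −1 and 1, and the basophil list, at −4.35, rests on 1 control cell.

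Some of the genes farthest apart between the libraries came from few cells, and others were spread. *Ctla2a*, a cathepsin inhibitor, had the highest ratio, with 1 and 58 UMIs (4.89, 2.36 to 10.2), in 9 *Smo* cKO cells of which 1 gave 74.1%. *Il1b*, interleukin 1 beta, had 9 and 119 UMIs in 4 and 10 cells (2.76, 1.79 to 3.93). *Ifitm1* had 19 and 181 UMIs (2.29, 1.60 to 3.05), and 180 of the 181 were in 18 S100-poor cells. *Cd69*, an early activation antigen, had 4 and 44 UMIs (2.50, 1.04 to 4.43), 38 of the 44 in S100-poor cells. *Prmt1* and *Nudcd2* had 5 UMIs each in control and 40 and 39 in *Smo* cKO, spread over 23 cells each. *Gm10036* had the second highest ratio, with 5 and 124 UMIs (3.67, 2.41 to 5.32) in 4 and 31 cells, of which no *Smo* cKO cell gave more than 12.1%. *H19*, *Ngp* and *Itm2a* were the others of the 10 highest.

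At the other end, most genes came from few control cells. *Car3*, an adipocyte carbonic anhydrase, had 169 UMIs in 2 control cells and 0 in *Smo* cKO, at least 110-fold lower with 3 counts over the *Smo* cKO members as the floor. *Cfd*, adipsin, had 64 and 0 UMIs (at least 41.6-fold lower), also from 2 control cells, and *Cxcl13* had 30 and 0, from 1. All *Car3* and *Cfd* UMIs lay in the third group of the clustering given below, in 25% of its cells. That group holds the pair of control members with only *Prtn3* described above. The *Car3* and *Cfd* ratios thus do not describe the members at large. *Prss34* and *Mcpt8* came from the cell with basophil transcripts described above. *Agps*, an enzyme of ether lipid synthesis, was the one of the 10 lowest found in more than 11 control cells, with 25 UMIs in 14 control and 9 UMIs in 8 *Smo* cKO cells (−2.44, −3.72 to −1.29). *Gas6*, *Inhba*, *Apoe* and *Fosb* completed the 10. Of the 153 genes at least 2-fold apart, 13 had over 50% of a library's UMIs from 1 cell.

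Among abundant genes, *Actb*, beta actin, was at 4509 and 1956 CPM (−1.20, −1.35 to −1.06) and *Malat1*, a nuclear RNA, at 11562 and 5839.5 CPM (−0.99, −1.07 to −0.90). *Plac8*, a cysteine-rich protein of myeloid progenitors, was close, at 4374 and 3998 CPM (−0.13, −0.25 to −0.0065). *Ptma*, a chromatin protein of dividing cells, was at 3990.5 and 5040 CPM (0.34, 0.22 to 0.46).

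Set beside neutrophil-rule cells, the members had more of 30% of 1119 genes by at least 2-fold in both libraries and less of 14.6%. Ratios were taken after adding 1 CPM to each side, and the lower of both libraries was used. Besides the rule genes, the 20 highest included *Cst7*, *Dmkn*, *Nkg7*, *Ms4a3* and *Prss57*, all at 0 in the control neutrophil-rule cells, where 1 UMI is 7.57 CPM, so that their order among the 20 is not read. *Prss57*, a further azurophil granule protease, was at 161 and 120 CPM in the members and 0 and 6.61 CPM in neutrophil-rule cells, and *Cst7*, cystatin F, at 181 and 109 CPM against 0 and 0. *Gstm1*, a glutathione transferase, was at 523 and 183 CPM against 0 and 16.5, with a ratio between the libraries of −1.51 (−1.98 to −1.06). *Dut* and *Tipin*, of DNA replication, and *Myb* and *Cdk6* were also among the 20.

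Set beside macrophage-rule cells, 7.62% of 1300 genes were at least 2-fold higher in the members of both libraries and 21.5% at least 2-fold lower. The 20 highest included *Elane*, *Prtn3*, *Ctsg*, *Camp*, *Ms4a3*, *Mpo* and *S100a8*. *Pglyrp1*, a peptidoglycan recognition protein of granules, was at 653 and 537 CPM in the members and 0.447 CPM in control macrophage-rule cells. *Hp*, haptoglobin, was at 612 and 548 CPM against 20.6 CPM in control macrophage-rule cells. *Myb*, *Plac8*, *Ms4a3*, *Nkg7* and *Prss57* were among the 20 highest in both comparisons.

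Clustering the members without the rule genes gave 3 groups, which are left unnamed. The first, of 33 cells (21 control and 12 *Smo* cKO), was led by *S100a9*, *Camp*, *S100a8*, *Wfdc21* and *Ngp*. The second, of 29 cells (8 and 21), was led by *Il1b*, *Ms4a6c*, *Lgals3*, *S100a4* and *Ccr2*. The third, of 8 cells (5 and 3), was led by *Car3*, *Cfd*, *H19* and *Col3a1*, with connective tissue markers at 12368 CPM, against 1271 and 1238 CPM in the others. *Car3* and *Cfd* were each found in only 25% of its cells and *H19* in 37.5%, while *Col3a1* was in 100%. Without the 4 control and 3 *Smo* cKO members whose collagen transcripts exceeded 0.5% of UMIs, 21 of 30 and 13 of 33 members were S100-rich, a difference of −30.6 points (−50.5 to −5.99).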

How the data were processed

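Callus cells were captured on the 10x Chromium platform, and the authors aligned the reads with Cell Ranger 3.0.2 to mm10, per the submitters' processing notes. The files the authors deposited are UMI counts as Cell Ranger gave them, for 31054 features. Cells were chosen by the rule given in the report, using the 13 symbols that begin with mt-, and the study's upper limit of 2000 genes was applied as an alternative. UMIs were summed over the members of each library and divided by their total to give CPM, and genes of at least 100 CPM in 1 library were compared, a ratio of 2-fold counting as apart. Ratios have exact Poisson, shares Clopper-Pearson and differences of shares Newcombe 95% intervals, which cover counting error only, and the limit given for a 0 is 3 counts of the total. Cells were thinned to 2000 or 1000 UMIs without replacement, leaving out shallower cells. With 1 library per genotype no p-value was computed. Sub-clusters came from Leiden clustering at resolution 0.4 on 15 PCs of 1000 variable genes.

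The members and gene lists were chosen with earlier results of these data known. Named genes were the rule genes, the listed genes, the 10 highest and 10 lowest ratios (sex-linked, mt-, ribosomal protein, hemoglobin and immunoglobulin genes left out), the 20 most abundant (mt- and ribosomal protein genes left out), and the 20 highest over neutrophil-rule and over macrophage-rule cells. S100 classes were chosen after seeing the data. Scrublet marked 0 control and 2 *Smo* cKO cells (0.021%) and so did not work as a caller. As an alternative the 8% of cells with the highest scores were left out, 760 and 720 cells with 1 and 3 members among them. Other alternatives were thresholds of 3 and 10 rule UMIs, at least 2 rule genes, rule genes at 0.2% of UMIs, CPM averaged over cells, scaling by the median gene ratio, floors of 50 and 200 CPM, and leaving out members with over 0.5% collagen or with 10 or more *Prss34* UMIs. The averaging over cells, these last exclusions and the alternatives for the S100 classes were chosen after seeing the data. Python 3.11.15 with numpy 2.4.6, scipy 1.17.1, pandas 2.3.3, scanpy 1.11.5 and matplotlib 3.10.9 was used, and scripts were tested on simulated data. Promoter sequences are from RefSeq and gene positions from GENCODE, both on GRCm38.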

Additional observations from a re-analysis of the deposited data

How the results depend on the processing

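No paired analysis was possible because each genotype has 1 library. With a limit of 2000 detected genes, the share of members was 0.663% in control and the difference −0.300 points. At this limit the genes apart were 156 higher and 132 lower in *Smo* cKO (76 of the 153 among them). The S100-rich share was 78.6% in *Smo* cKO and its difference 3.57 points. Cells with S phase and G2 and M phase UMIs were 92.9% and 100% in *Smo* cKO, against 40% and 68% in control. After thinning to 1000 UMIs, S phase shares of these cells were 22.2% in control and 21.4% in *Smo* cKO. Their G2 and M phase shares were then 51.9% in control and 78.6% in *Smo* cKO. Over 2000 genes, the S100-rich share in *Smo* cKO was 13.6%. Among cells under the collagen limit members were 0.711% and 0.643%, and with at least 1 rule UMI after thinning to 1000 UMIs 0.588% and 0.714%. At that depth S phase shares were 24.2% and 33.3% and G2 and M shares 60.6% and 63.9%. A floor of 50 CPM gave 227 higher and 196 lower genes, and one of 200 CPM 25 and 28. Scaling by the median gene ratio gave 69 higher and 76 lower genes, and asking for at least 2 rule genes 93 and 54. The secondary granule values by rule UMIs moved when each library was taken alone, to 3742, 12144 and 3259 CPM in control and 30663, 371 and 10541 CPM in *Smo* cKO. Of these, the 3742, 12144 and 30663 CPM each rest on 1 or 2 cells. Small lists reversed: the log2 ratio of *Smo* and tdTomato became 0.64 at 2000 genes or fewer, that of the macrophage list 0.89 with at least 2 rule genes, and that of the basophil list 1.48 with at least 2 rule genes, 1.44 without the highest Scrublet scores and 1.55 without the cell with *Prss34*. At 2000 genes or fewer the early progenitor list moved to −1.54, the mature neutrophil list to 1.53, the ER folding list to −0.32 and the oxidative burst list to 0.58, and without members of over 0.5% collagen the mature neutrophil list was −0.026. The connective tissue list ran from −0.92 to 0.12 under the 10 alternatives. The causes were not tested, except that leaving out the *Prss34* cell loses 98.4% of the control UMIs of the basophil list, and that asking for at least 2 rule genes leaves out 3 control members, this cell and 2 that held 36 and 82 of the 132 control *Apoe* UMIs. The ratio kept its sign under all 10 alternatives run for other primary granule genes (−0.52 to −0.036), secondary granule genes (0.56 to 2.29), monocyte genes (−0.97 to −0.34), S phase genes (0.28 to 0.57) and interferon-stimulated genes (0.47 to 1.49). Depth limits genes such as *Cd34* and *Kit*, with few UMIs a cell, and 34 and 36 cells of 1 library each cannot separate genotype from library.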
